A study of Schizosaccharomyces pombe with 25 samples.

Results

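The mug and meu genes of fission yeast, Schizosaccharomyces pombe, carry names given to meiotically upregulated genes and to genes of meiotic expression upregulated. They were chosen here by name alone: protein-coding genes on chromosomes I, IIc and III of the deposited gene annotation whose name begins with mug or meu followed directly by a digit. The rule found 131 genes, 113 named mug and 18 named meu, of 5123 nuclear protein-coding genes, which left 4992 other protein-coding genes for comparison. Another 5 genes with such names (meu3, meu11, meu16, meu19 and meu20) were annotated as non-coding RNA genes and were not counted. The name is a label and not a measurement, and no meiotic expression value was analysed here. It is also an incomplete label. Many genes first found in the same way have since been renamed: 69 further protein-coding genes had a mug or meu number only among their RefSeq synonyms.

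The series comprises 25 chromatin immunoprecipitation libraries from S. pombe grown in YES, a rich medium for vegetative growth, in 13 groups, made to follow the centromeric histone CENP-A (Cnp1), the histone variant H2A.Z (Pht1) and the chromatin remodeller Swr1. The 9 CENP-A libraries, made with anti-Cnp1 serum, came from wild type (wt) and from strains lacking swr1, msc1 or pht1 (swr1∆, msc1∆, pht1∆), and 4 of them, 1 of each genotype, from strains with the exchanged central core that the labels call cc2∆:cc1. The 12 libraries of myc-tagged H2A.Z were 4 each from wt, swr1∆ and msc1∆, and wt strains gave 2 libraries each for myc-tagged Swr1 and flag-tagged Msc1. The files analysed here hold no value of any library. They give the gene models of the genome with the modified chromosome, called IIc, so every result below is a property of gene models or of genome sequence, has no replicates, and is given as a count or median beside the same over the other genes, with no test.

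In S. pombe, nitrogen starvation and mating switch on a cascade of transcription factors. Ste11 acts early, and Mei4, a forkhead protein that binds the FLEX element, turns on many genes of the meiotic divisions and of spore formation. In vegetative cells, the RNA-binding protein Mmi1 recognises a hexamer motif in a set of meiotic transcripts and directs them to degradation, and several meiotic transcripts are spliced only in meiosis. The genes described here range over chromosome pairing, spore membrane and spore wall formation, and membrane transport. As product, RefSeq gives 69 of the 131 only a mug or meu name, and the other 62 a description or another name.

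Of the motifs searched, the core of the FLEX element had the largest difference in share between the mug and meu genes and the other genes. The promoter window was read from 250 bases before to 50 bases after the RefSeq gene start, on assembly ASM294v3, and all 131 genes were found there by systematic identifier. Both strands were searched for GTAAACA and GTAAATA. The 14 windows of 30 bases that follow are from the 10 meu genes with GTAAACA and from 4 mug genes with a described role, each written 5′ to 3′ on the strand of its gene. Capitals mark the core, which appears as TGTTTAC where it lies on the other strand.
meu14 (chrII:4066264-4066293, forward strand): atatatttttctgaaacGTAAACAatcaac
meu17 (chrII:2213514-2213543, reverse strand): ccctctgttttTGTTTACtaataaacaaag
meu23 (chrIII:99558-99587, reverse strand): tacagctttggTGTTTACatattcatgtac
meu25 (chrII:1563843-1563872, forward strand): aatgatccataGTAAACAaacattcaactt
meu26 (chrI:2442506-2442535, forward strand): tgggtgtgtttTGTTTACtgtttttacgcg
meu29 (chrI:2530038-2530067, forward strand): ggtgaattcggTGTTTACatcggtatatcc
meu31 (chrI:1083481-1083510, reverse strand): agatggaaattTGTTTACattttaattact
meu34 (chrI:1424307-1424336, reverse strand): cttttttggttTGTTTACcttgcttacccc
meu6 (chrII:454089-454118, forward strand): gtcgatttgttTGTTTACattctcgccaac
meu7 (chrII:4274722-4274751, reverse strand): agcagtcctttTGTTTACgcctaaaaatac
mug20 (chrII:2393135-2393164, reverse strand): gctagcttgatGTAAACAaaagacgcgtag
mug24 (chrIII:1919061-1919090, forward strand): gaaaatagcaaTGTTTACatttgaaatggt
mug28 (chrI:1650950-1650979, forward strand): ctgtttactttTGTTTACattgagaattcc
mug89 (chrII:306698-306727, reverse strand): tatatgtacgttgcagattatgTGTTTACt

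The windows hold genes of quite different function. meu14 encodes a PIL domain protein of the forespore membrane, the membrane that grows around each spore, and its core began 13 bases before the start codon. It had 3 cores in its window, as had meu25, mug73, a predicted transporter, and mug94. mug20 encodes a component of the linear elements, on which meiotic chromosomes are organised in this yeast, and had 2 cores, the printed one 50 bases before the start codon. mug28, an RNA-binding protein needed for the forespore membrane, also had 2, and the second can be read within the same 30 bases as the lower-case tgtttac. meu7, described by RefSeq as alpha-amylase 4, had 2 cores, and meu17, a predicted glucan-alpha-1,4-glucosidase, had 1, beginning 160 bases before its start codon. mug89 encodes a subunit of a phospholipid-translocating ATPase complex, and its core began 8 bases before the annotated gene start and 214 before the start codon. Of the 11 members with a described role that were listed for this purpose, 6 had the core (meu6, meu14, mug20, mug24, mug28 and mug89). The others were meu10, meu13, meu22, mug14 and mug30.

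GTAAACA was present in the window of 63 of 131 mug and meu genes (48.1%), against 777 of 4972 other genes with a RefSeq partner (15.6%). The share was 46.9% among mug genes and 55.6% among the 18 meu genes, so both names carried it. At least 2 cores were found in 24 members (18.3%) and 79 other genes (1.59%), and exactly 3 in 4 members and 8 other genes. Lengthened to GTAAACAAA, a form chosen after the data were seen, the core was in 39 members (29.8%) and 255 other genes (5.13%). The variant GTAAATA differed less, with 33 members (25.2%) and 793 others (15.9%). Either form was found in 78 members (59.5%) against 28.5% of the other genes. The GC content of the windows was close in both groups, with a median of 32% in members and 33% in other genes, and its part in these shares was not tested.

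Elements of other factors were found at shares close to those of the other genes. TGACGT, the core bound by Atf1 and Pcr1, was in 9 members (6.87%) and 293 other genes (5.89%). TTCTTTGTT, a form of the TR box bound by Ste11, was in 2 members (1.53%) and 100 other genes (2.01%). A match to such letters is a description of the sequence and does not show that a factor binds there.

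The position of the core also differed. Because many members have no annotated 5′ UTR, the search was repeated in the 500 bases before the RefSeq start codon, in steps of 100 bases. In members the share with GTAAACA was 18.3% in the first 100 bases, 26.7% from 101 to 200 bases and 16% from 201 to 300 bases. It was then 6.87% and 7.63% in the last steps. In the other genes every step lay between 4.49% and 5.29%. The difference between members and other genes was thus largest within 300 bases of the start codon. The core was as frequent in members with an intron (25 of 52, 48.1%) as in those without (38 of 79, 48.1%). It was in 20 of the 35 members with no deposited 5′ UTR (57.1%) and in 43 of the 96 with one (44.8%). The share over all other genes, not split in these ways, was 15.6%.

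**Figure D1:**
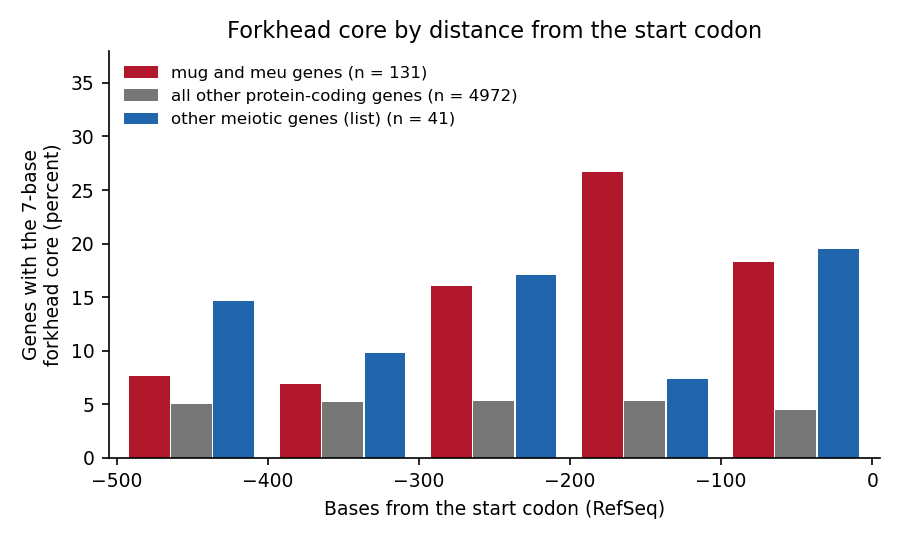
Share of genes (vertical axis, percent) with the 7-base forkhead core GTAAACA on either strand in each 100-base step before the RefSeq start codon (horizontal axis, bases), for the 131 mug and meu genes, the 4972 other genes and a list of 41 other meiotic genes. The bars of the mug and meu genes reach 26.7% from 101 to 200 bases, while those of all other genes stay between 4.49% and 5.29%.

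The motif read by Mmi1 was sought in the spliced coding sequences of RefSeq, on the coding strand. Members held 330 copies of TNAAAC, 2.21 per kb over all their coding sequence, against 1.68 per kb in the other genes. The medians per gene were closer, 1.77 and 1.51 per kb, and 22 members had none (16.8%, against 22.1% of the other genes). The stricter TTAAAC was in 45 members (34.4%) and in 33% of the other genes, and over all coding sequence stood at 0.462 per kb in members and 0.335 per kb in the others. The highest densities belonged to mug9, with 8 copies or 12.8 per kb, mug37 (9.17 per kb), meu13 (7.68 per kb), mug178, a mitochondrial ribosomal protein (7.37 per kb), and mug45, whose 17 copies (6.91 per kb) were the most of any member. Members' coding sequences had a median GC content of 38.6%, against 39.7% in the others. Its part in the motif density was not tested.

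Most mug and meu genes were annotated without an intron. In the deposited gene models 52 of 131 (39.7%) had more than 1 exon, against 2455 of 4992 other genes (49.2%). The meu genes were split evenly, 9 of 18, while 43 of the 113 mug genes (38.1%) had an intron. There were 27 members with 2 exons, 11 with 3, 6 with 4, 5 with 5, 2 with 6 and 1 with 7. Measured against coding length the difference was smaller, since members also had shorter coding sequences: all introns divided by all coding sequence gave 0.691 per kb in members and 0.741 per kb in the others.

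The 8 members with 5 or more exons (6.11%, against 6.73% of the other genes) were a mixed group. mug137, a BAR adaptor protein that RefSeq describes by its membrane-shaping domain, had the most, 7 exons in 1717 bases on chromosome III from 2231665 to 2233381. mug16, of the UNC-50 family linked to vesicle transport, and mug62, a putative AMP-binding enzyme, had 6 each. meu13 encodes the pairing protein known as Hop2 in other organisms, which acts with Mcp7 in the pairing of homologous chromosomes. It had 5 exons in 929 bases, on chromosome I from 977709 to 978637, and its introns were 46, 47, 42 and 143 bases long. mug64, another BAR domain protein, mug161, a CwfJ family splicing factor, mug179, a phosphoinositide-binding protein, and mug126 also had 5. In mug126 the first introns, of 56 and 52 bases, lay in the 5′ UTR.

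**Figure D2:**
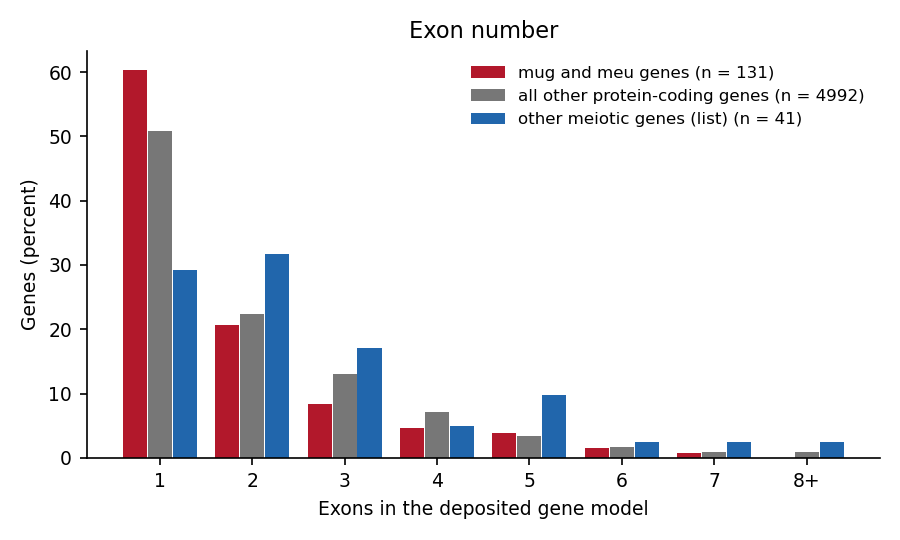
Share of genes (vertical axis, percent) by number of exons in the deposited gene model (horizontal axis) for the 131 mug and meu genes, the 4992 other protein-coding genes and the list of 41 other meiotic genes. The single-exon bar is highest for the mug and meu genes (60.3%) and lowest for the other meiotic genes (29.3%).

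Intron lengths were close to those of other genes. The 103 introns of members had a median of 56 bases, and so did the 5195 introns of the other genes. The 98 that interrupted coding sequence ran from 37 bases in mug174, which encodes the yeast coilin, to 293 bases in mug82, with a median of 56.5 against 55. The next longest, of 272 bases, was in mug65, a gene for spore wall assembly. Introns of 100 bases or more made up 17.5% of the members' introns and 20.8% of the others'. Of the other genes' introns 24 were under 20 bases and 0 of the members' were. In members 5 introns lay in UTRs (4.85%, against 4.47% of the others'). They were 2 in mug126, 1 each in meu15 (133 bases) and mug174 in the 5′ UTR, and 1 of 58 bases in the 3′ UTR of meu10.

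Splice sites were read from RefSeq for introns of at least 20 bases that interrupt coding sequence, 99 in members and 4919 in other genes, and all 99 began with GT. GTAAGT opened 25 (25.3%), against 27.6% of the other genes' introns, and GTATGT opened 12 (12.1%), against 20.1%. TAG closed 67.7% and 68.6%. CTAAC, a form of the branch sequence, stood in the last 40 bases of 41.4% of the members' introns and 44.5% of the others. The last 30 bases of the meu13 introns are printed here because the third closes with GAG, the 1 member intron to do so beside 6 of 4919 others. Capitals mark CTAAC or CTAAT, and the second intron has neither in these letters.
meu13 intron 1 (chrI:977774-977803, forward strand): aggcattggtattcagCTAATcaatcgcag
meu13 intron 2 (chrI:977875-977904, forward strand): aaaaatcgaagctgacaattttgttaaaag
meu13 intron 3 (chrI:978019-978048, forward strand): tagttaaacagattaCTAACgattactgag
meu13 intron 4 (chrI:978303-978332, forward strand): acagcacttgttttatgCTAACtctaaaag

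The third intron of meu13 opened with GTACTG and the fourth with GTCAGT, and no meu13 intron had the start GTAAGT, the more frequent of the 2 starts given above. In mug137 GTAAGT opened 2 of 6 introns, and none of the 6 had CTAAC or CTAAT in its last 30 bases. Other forms of the branch sequence were not searched, so an intron without these letters may still hold one. These are readings of a reference sequence, and splicing was not measured here.

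Missing untranslated regions were common among the mug and meu genes. No 5′ UTR was annotated for 35 of 131 (26.7%), against 394 of 4992 other genes (7.89%). No 3′ UTR was annotated for 24 (18.3%), against 350 (7.01%). Both were missing for 16 (12.2%), against 248 (4.97%). The 16 were meu1-1, meu7, meu13, meu32, mug9, mug15, mug28, mug42, mug82, mug93, mug94, mug98, mug103, mug110, mug112 and mug128. A model with no UTR begins at the start codon and ends at the stop codon. It states that no transcript end was placed there and not that the messenger RNA has none.

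Where a UTR was annotated its length was ordinary. The median 5′ UTR was 194 bases over 96 members and 174 over 4598 other genes. The median 3′ UTR was 279 bases over 107 members and 262 over 4642 others. The longest 5′ UTRs were those of meu10, a GPI-anchored protein of the spore wall (1933 bases), mug86, an acetate transporter (1877), meu22, an amino-acid permease (1871), mug150 (1620) and mug24, an RNA-binding protein (1568). The longest 3′ UTRs were those of mug115 (2724 bases), mug163 (2667), mug162 (1922), mug177 (1780) and mug114 (1536). In 6 members UTR made up at least 80% of the mature transcript (4.58%, against 2.22% of the other genes). In mug115, on chromosome I from 1148131 to 1152178, it was 90.2%, around a coding sequence of 396 bases. The rest were mug150, mug153, mug177, mug124 and mug163.

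The 5′ ends depended on which annotation was read. RefSeq had the same 3′ UTR length for 131 of 131 members and for 99.3% of the other genes. Of the 96 members with a deposited 5′ UTR, 0 had the same length in RefSeq, against 25 of 4588 other genes (0.545%), so the 5′ ends differ throughout the 2 annotations. The RefSeq 5′ UTR was shorter for 80 members (61.1%, against 77.2% of the other genes) and longer for 21 (16%, against 17.6%). These shares count all paired genes, and a gene with no deposited 5′ UTR cannot have a shorter one in RefSeq. Such genes made up 26.7% of the members and 7.89% of the other genes. In RefSeq 50 members (38.2%) had no 5′ UTR, against 545 of 4972 other genes (11%). For meu10 the 5′ UTR was 365 bases in RefSeq and 1933 in the deposited models, for mug86 it was 138 and 1877, and mug150 and mug24 had none in RefSeq. Of the 5 longest 5′ UTRs, that of meu22 was the one of similar length in both (1788 and 1871 bases). Of the 35 members without a deposited 5′ UTR, 30 also lacked one in RefSeq (85.7%, against 62% of such other genes). RefSeq further lacked one for 20 of the 96 members that have one in the deposited models (20.8%, against 6.69%).

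**Figure D3:**
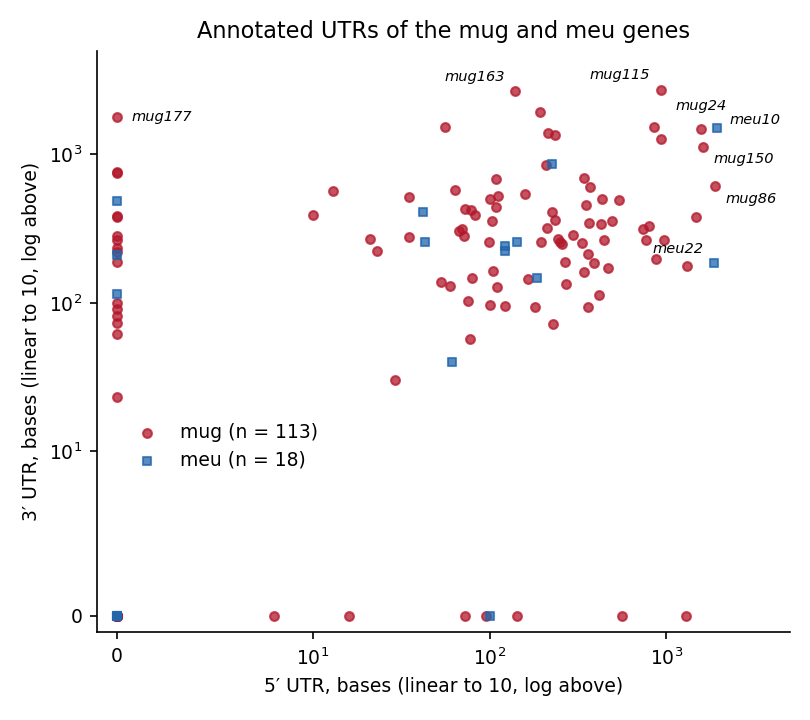
Annotated 5′ UTR (horizontal axis, bases) against 3′ UTR (vertical axis, bases) of each mug gene (circles) and meu gene (squares) in the deposited models, on axes that are linear to 10 bases and logarithmic above. Genes on the left edge have no 5′ UTR (35) and those on the lower edge no 3′ UTR (24), and mug115 and mug163 stand highest.

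Coding sequences of the members had a median of 930 bases, against 1140 in the other genes, and 37 members (28.2%) were under 600 bases, against 20.4%. The difference rested on chromosome I, without which the medians were 1133 and 1140 bases. The shortest were mug150 (315 bases, 104 residues), mug177 (318), mug153 (330) and mug98 (342), with mug42, mug106 and mug168 next at 348. The longest was mug81, a predicted RNA helicase that RefSeq calls rqt2 (5808 bases, 1935 residues), followed by mug62 (4287), mug190, an endoplasmic reticulum tethering protein that RefSeq calls tcb2 (3567), mug138 (2910) and mug56, a gene of spore wall assembly (2898). The 18 meu genes did not share the short median. Theirs was 1215 bases, and that of the mug genes was 909. Gene spans, introns and UTRs included, had a median of 1602 bases in members and 1900 in the others.

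Non-coding RNA genes on the opposite strand lay over much of the gene where they were present at all. Of the 131 members 35 (26.7%) were overlapped by at least 1 base, against 1052 of 4992 other genes (21.1%), a small difference. Asking for cover of 50% or more of the gene left 28 members (21.4%) and 484 others (9.7%). Cover of 90% or more left 15 members (11.5%) and 225 others (4.51%). Whole genes were covered in 9 members (6.87%) and 135 others (2.7%). Among overlapped genes the median share covered was 86.2% in members and 43.6% in the others. Members are shorter than other genes, and the part of gene length in these shares was not tested.

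The 18 meu genes contributed 9 of the 35, which is 50% of them, against 23% of the mug genes. meu14 was covered whole by SPNCRNA.1663, which at 1650 bases ran past both ends of the 1164-base gene, on chromosome IIc from 4065444 to 4066607. meu17 was covered to 95.8% by SPNCRNA.1494, meu25 to 95% by SPNCRNA.1446 and SPNCRNA.1447, meu31 to 94.7% by SPNCRNA.710, meu18 to 92.9% by SPNCRNA.1417 and meu26 to 91.1% by SPNCRNA.827. meu10 was covered to 60% by SPNCRNA.1237 and SPNCRNA.1238, meu7 to 47.4% and meu22 to 18.8%.

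Among the mug genes 8 were covered whole: mug27, mug66, mug74, mug93, mug95, mug98, mug105 and mug182. mug27 encodes a protein kinase of the forespore membrane and lay under SPNCRNA.1217 and SPNCRNA.583, which covered 94.5% and 96.2% of it and together all of it. mug66, which RefSeq calls atg101 after a factor of autophagy, and its neighbour mug105, a peptidase, lay under the same 2159-base gene, SPNCRNA.833, from 2527828 to 2529986 on chromosome I. It was the only one of the 40 different antisense genes to overlap more than 1 member. mug1, which RefSeq calls jnm1, a dynactin subunit, was covered to 95.7%. The least covered was mug185, at 7.33%.

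Among the mug genes antisense overlap differed with gene structure, and the meu genes did not share this. Members with an intron had an antisense gene in 18 of 52 cases (34.6%), against 19.1% of the other genes with an intron. Members with 1 exon had one in 17 of 79 cases (21.5%), against 23%. The mug genes had 32.6% with an intron and 17.1% with 1 exon, and the meu genes 4 of 9 and 5 of 9. The forkhead core was in 14 of the 35 members with an antisense gene (40%) and in 49 of the 96 without (51%), beside 16% and 15.5% of the other genes. The meu genes ran the other way, 6 of 9 with an antisense gene (66.7%) and 4 of 9 without (44.4%). Overlap with protein-coding genes on the opposite strand was about as frequent as elsewhere, in 55 members (42%) and 42.9% of the other genes.

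**Figure D4:**
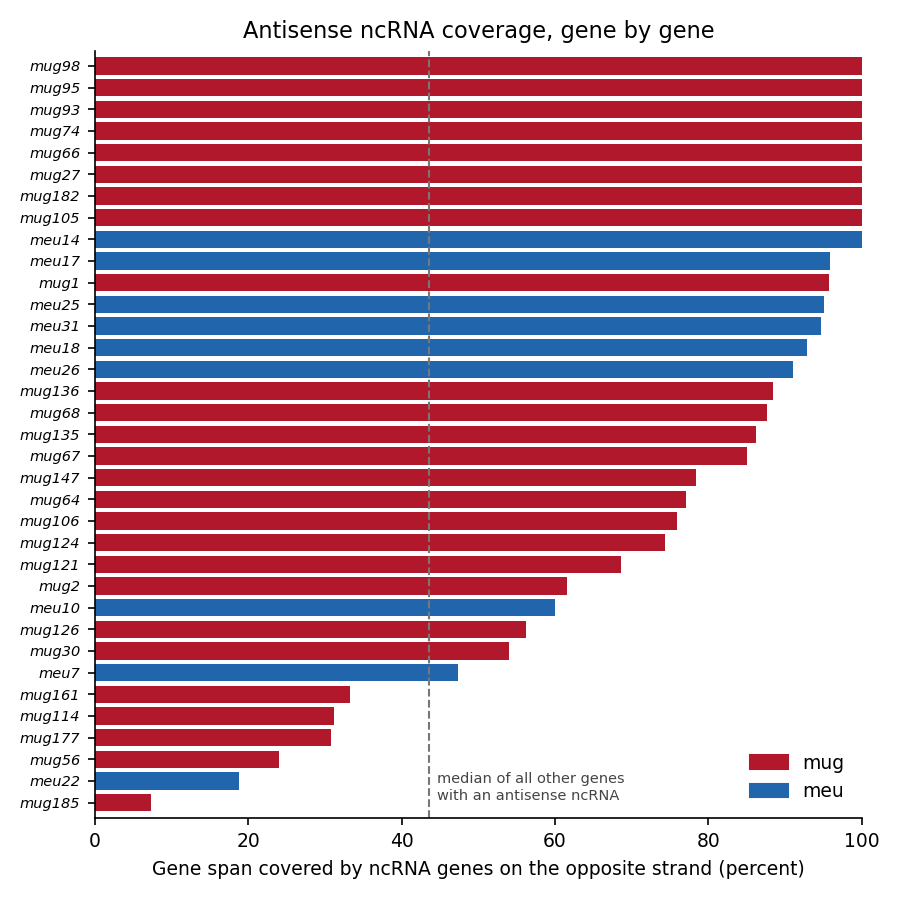
Share of the gene span covered by ncRNA genes on the opposite strand (horizontal axis, percent) for each of the 35 mug (red) and meu (blue) genes with such an overlap, ranked from most to least. Bars of 9 genes reach 100%, and the dashed line is the median of the other overlapped genes, 43.6%.

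Some mug and meu genes lay next to each other or inside one another's transcripts. The number of adjacent members was not set against that in other sets of genes. Overlap with opposite-strand coding genes was, as given above, about as frequent in the other genes. mug66, mug105 and meu29 formed a run of 3 on the forward strand of chromosome I, with 440 and 194 bases between them. mug163 and mug55 on chromosome III were nested. The 3′ UTR of mug163 held the whole of mug55, 1592 bases on the other strand, which RefSeq calls fzr3, a meiotic activator of the anaphase-promoting complex. The 1780-base 3′ UTR of mug177 likewise held the whole coding sequence of mug58, a glycerate kinase. mug57 and mug97 on chromosome IIc ran towards each other and overlapped by 1498 bases, and even their coding spans overlapped, by 27 bases. mug116 and mug86, on the same strand, shared 561 bases in the deposited models. That overlap lay in the 1877-base 5′ UTR of mug86, which was 138 bases in RefSeq. Their coding spans were 2069 bases apart.

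Long 3′ UTRs of other members also held whole coding sequences of neighbours on the opposite strand. mug162 held sst6, mug30, an E3 ubiquitin ligase, held stc1, which links RNA interference to heterochromatin, mug185 held rsa3, and mug115 held SPAC56F8.13. Counting mug163 and mug177, 6 members (4.58%) had a neighbour's complete coding sequence in a UTR, against 328 other genes (6.57%). The reverse, a member's complete coding sequence inside a neighbour's UTR, was found for 17 members (13%) and 334 other genes (6.69%), a count made after the data were seen. Members' coding sequences are shorter than those of the other genes, and the part of coding length in these shares was not tested. The share of members whose UTR ran over any coding bases of another gene, 20 of 131 (15.3%), was close to that of the other genes (16.1%).

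The genes were spread over all 3 chromosomes. Chromosome I held 65 (2.78% of its protein-coding genes), IIc held 36 (1.93%) and III held 30 (3.26%). On chromosome I they lay mostly on the long arm, 52 of 1586 genes (3.28%) to the left of the centromeric interval and 13 of 748 (1.74%) to the right. The longest stretch between neighbouring members was 639 kb on IIc, between mug20 and mug98, followed by 454 kb on I, between mug56 and mug157, 330 kb on I, between mug109 and mug129, and 317 kb on IIc, between meu6 and mug71. The longest on III, between mug4 and meu27, was 252 kb. The strands were used evenly, with 64 members (48.9%) on the forward strand and 49.6% of the other genes.

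**Figure D5:**
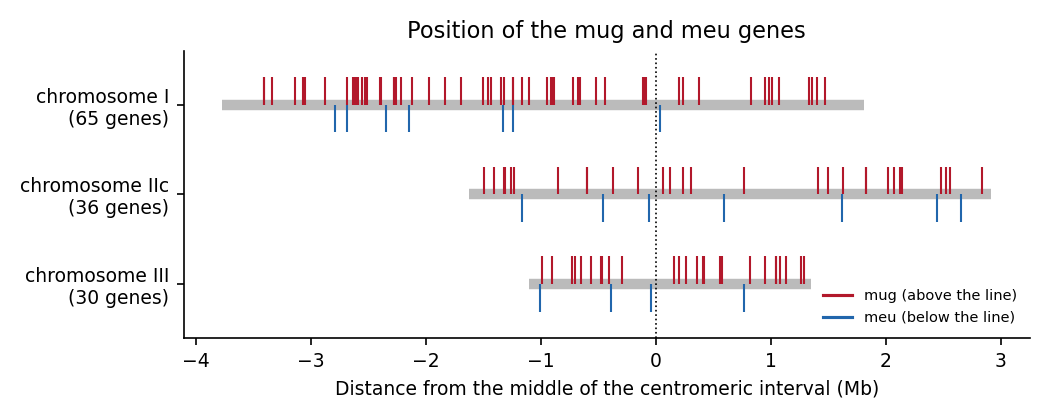
Position of each mug gene (red, above the line) and meu gene (blue, below the line) along chromosomes I, IIc and III, as distance from the middle of the centromeric interval (horizontal axis, Mb). Grey lines span the chromosome sequences, and the 52 members left of the interval on chromosome I outnumber the 13 to its right.

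The share of members near chromosome ends was close to that of the other genes at 100 kb. An end here is the end of the chromosome sequence, and what lies beyond it was not examined. The nearest to an end was mug170, an arrestin family adaptor, at 56.7 kb on chromosome III, followed by mug180, which RefSeq calls say1 (77.7 kb, IIc), mug9 (83.1 kb, III) and meu23 (98.6 kb, III). Those 4 were the members within 100 kb (3.05%, against 3.73% of the other genes). The direction depended on the genes compared: named other genes had 1.56% there and those known by identifier alone 7.2%, and without chromosome I the members had 6.06% and the others 4.41%. Within 50 kb there were 0 members and 84 other genes (1.68%), and within 200 kb 6 members (4.58%) and 416 others (8.33%, or 5.62% of those with a name). The median distance was 1084 kb in members and 1081 kb in the others.

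Near the centromeres, taken as the longest stretch without a protein-coding gene on each chromosome, meu27 was the closest member. It ended 0.249 kb from the interval on chromosome III. The whole of meu27 lay inside chk1, the checkpoint kinase gene on the opposite strand, which runs from 1059799 to 1064443 with a 3′ UTR of 2615 bases, and the 3′ UTR of meu27 ran over 228 coding bases of chk1. meu1-1 lay 11.6 kb away on chromosome I, and meu25 and mug124 lay 30.7 and 37.1 kb away on IIc. Those 4 were the members within 50 kb (3.05%, against 2.72% of the other genes). They were 3 of the 18 meu genes (16.7%) and 1 of the 113 mug genes (0.885%).

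A list of 41 other meiotic genes, named for recombination, sporulation or regulatory roles and also counted among the 4992, differed from the mug and meu genes in exon number. Of the list, 10 are also mug or meu genes by a RefSeq synonym, so the 2 groups are not wholly separate. In all 29 of the 41 (70.7%) had an intron, with 1.36 introns per kb of coding sequence, and 7 (17.1%) had 5 or more exons. Those with the most were rec11, the meiotic cohesin subunit, with 9 exons, hop1, of the chromosome axis, with 7, and spo14 with 6. Those with 5 were rec8, the meiotic kleisin, rec12, the enzyme that makes the DNA breaks of recombination, crs1, a meiotic cyclin, and mmi1. spo6 and spo20 had 4, and rec7, rec27, bqt2, cuf2, mek1, spo4 and spo5 had 3. On several other measures the list's shares were nearer to those of the mug and meu genes than to those of all other genes: 17 (41.5%) had no 5′ UTR, 12 (29.3%) had an antisense ncRNA gene, 6 (14.6%) were covered whole, and 16 (39%) had GTAAACA in the promoter window. TNAAAC stood at 3.02 per kb in the list, above the 2.21 of the mug and meu genes.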

How the data were processed

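The genes and gene lists described here were chosen with earlier results of these data known. The deposited gene annotation gives start and end positions, counted in bases, of exons, coding sequences and codons; it carries no normalised quantity and no measurement of any library. Per the submitters' processing notes the build is ASM294v2 and the tools include BWA, Bowtie2, SAMtools, bedtools and deepTools 2.5.3; the sources used here do not say how chromosome IIc and its gene models were made. Only 1 protein-coding gene has more than 1 transcript. UTR is exon outside the coding sequence, an intron is a gap between exons, and overlap is counted from 1 base. Distances run from the nearer gene edge, and chromosome ends are the ends of the chromosome sequences. Gene positions without a build are those of the deposited annotation, and positions written with chr are those of RefSeq ASM294v3. No promoter table was used: windows were read from the RefSeq sequence with RefSeq's own gene starts, for 5103 of 5123 genes paired by identifier. Neighbouring windows can share bases. Named genes are those at the extremes of a measure (the 5 highest, and for some the 5 lowest), in runs, near chromosome ends, covered to 90% or more, or in a list of 15 genes with a described role, 11 of them members; the genes named for 3 forkhead cores, for splice sites and for neighbours' coding sequences, and the 30-base windows, were chosen after values were seen. Computation used Python 3.11.15, pandas 2.3.3, numpy 2.4.6 and matplotlib 3.10.9, checked on simulated gene models. Depth does not apply.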

Additional observations from a re-analysis of the deposited data

How the results depend on the processing

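Differences are members minus other genes, or for the list of other meiotic genes the list minus the rest. The chromosomal spread is instead the highest over the lowest share by chromosome. Each was recomputed against named genes, without the 1 gene of more than 1 transcript (meu1-1), without each chromosome and, for most, with other definitions. All but the list were also recomputed with mug or meu genes alone and with 200 genes named by RefSeq synonym too. There were 143 alternatives in all. Of these, 120 stayed near the reported value without a change of direction. That meant inside the 95% binomial interval of the members' or the list's own value. For the chromosomal spread it meant within a fixed ratio of the reported value. Some alternatives could hardly have moved. Leaving out meu1-1 takes away 1 gene. The reported difference in intron length was 0, so its direction could not turn. The median of TTAAAC alone was 0 per kb in both groups. The spread stayed at 1.69 without chromosome I, because IIc and III set the lowest and highest share. With the 18 meu genes alone, the intron share turned from -9.48 to 0.821 points, the median 5′ UTR from 20 to -51 bases, the 3′ UTR from 17 to -21, the coding length from -210 to 75, the share within 100 kb of an end from -0.673 to 1.83 points, TNAAAC from 0.256 to -0.0345 per kb and TGACGT from 0.977 to -5.89 points. There the share with no 5′ UTR rose from 18.8 to 31 points, with no 3′ UTR from 11.3 to 20.8, and with an antisense gene from 5.64 to 28.9. The 5′ UTR median also turned to -29 without chromosome III and to -56 with absent UTRs as 0, so its direction is not settled. RefSeq gave 27.2 points for no 5′ UTR. Without chromosome I the coding length differed by -7.5 bases and the end share was 1.65 points, and against named genes it was 1.49; within 200 kb it was -3.75. On the gene's strand alone the forkhead difference was 15.2 points, against 31 on both. TGACGT turned to -1.04 without chromosome III, and TTCTTTGTT, -0.485, turned to 0.522 with synonyms, 0.197 without IIc and 0.219 on the gene's strand alone. The causes were not tested. No paired analysis was possible because the results come from no test.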
